A study of Mus musculus with 10 samples.

Results

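Oxidative phosphorylation passes electrons from NADH and succinate through complexes I to IV of the inner mitochondrial membrane and uses the resulting proton gradient to make ATP in complex V, the ATP synthase. Most of the protein subunits of these complexes are encoded by nuclear genes, and the mitochondrial genome encodes a small set that includes parts of complexes I, III, IV and V. Hair cells of the cochlea, which turn sound into electrical signals, maintain ion gradients, outer hair cells also have a motile cell body, and supporting cells (SCs) surround both kinds. The genes described here are the nuclear genes of oxidative phosphorylation, taken as every listed symbol that begins with Nduf, Uqcr or Atp5, is Sdha, Sdhb, Sdhc or Sdhd, or begins with Cox and a digit from 4 to 8. This rule gave 92 of 34590 listed genes. They comprise 38 genes named for complex I, 4 complex I assembly factors (Ndufaf1 to Ndufaf4), 4 of complex II, 8 of complex III, 19 of complex IV and 19 of complex V. The pattern also takes in genes that are no subunits: the assembly factors, Cox4nb (a subunit of the endoplasmic reticulum membrane protein complex), Atp5s and Atp5sl (related to the ATP synthase by name), Cox7a2l (a supercomplex factor) and the copies Atp5l-ps1 and Atp5l2. Ndufa4 carries a complex I name and was left in that class, although its protein is known as a part of complex IV.

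Bulk RNA-seq was made from handpicked fluorescent mouse cochlear cells of 5 cell types with 2 libraries each, to compare cells that ectopic Atoh1 had converted toward hair cells with supporting cells and with native hair cells. The SCs, aged P27 (library 12) and P26 (library 11), were marked by Fgfr3iCreER, which the study uses for Deiters' and pillar cells, and a loxP-stop-loxP tdTomato reporter at Rosa26. The converted hair cells (cHCs, P33, libraries 13 and 16) carried these alleles together with the Atoh1-HA transgene and an EGFP reporter of the alpha9 acetylcholine receptor, and both mouse groups had received tamoxifen at P12 and P13. The outer hair cells (OHCs) at P7 (libraries 15 and 14) and at maturity (mature OHCs, 1 library at P21 and 1 at P22) are both labelled as Prestin-YFP knock-in (prestin-YFPYFP/+), whereas the study's supplement gives Prestin-CreERT2 and the tdTomato reporter for the P7 cells, with tamoxifen given on P2 and P3. The inner hair cells (IHCs, 1 library at P74 and 1 at P75) were marked by Pval-Cre and tdTomato, a driver that is also active in other cells. In the titles, m precedes the age of the P21 library and of both IHC libraries, and f that of the P22 library. Read as male and female, these letters mean that the 2 mature OHC libraries differ in sex as well as in age. No other title gives such a letter. The ages of the mature OHCs are taken from these titles, and the study's supplement gives slightly later ones. The 2 libraries of SCs, of mature OHCs and of IHCs differ in labelled age, and the study calls the libraries of each cell type biological duplicates. For cHCs and P7 OHCs the labels do not say whether the 2 libraries came from separate animals. With 2 libraries per cell type, the p-values below measure the spread between these libraries only.

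Between 15016129 and 40518766 reads were counted on genes per library, and levels are given as CPM (counts scaled to a fixed library total) after TMM scaling, a correction for libraries in which a few genes take many of the reads. A count of 0 allows a level of up to 3 counts, 0.0740 to 0.200 CPM depending on the library, a limit that covers counting error only since amplified reads are not independent molecules. For 4 of the 10 samples, among the SC, cHC and OHC P7 samples, the GEO record holds the counts of another sample, and the counts were assigned by the titles that the files carry and by the study's own CPM columns. With the files as attached to the records, edgeR called 0 members in any comparison, as it called 0 of all 16891 genes tested. Several directions below turned with these files, as stated beside them. Under the assignment used, the outer hair cell markers Slc26a5 and Ocm summed to between 4255 and 12027 CPM in the 4 OHC libraries and to at most 240.7 CPM in the others, and Slc17a8, which marks inner hair cells, reached 1763 and 1907 CPM in the IHC libraries and at most 75.5 CPM elsewhere. A sum of 9 SC markers was also present in IHCs (735 and 912 CPM), cHCs (882 and 1198 CPM) and P7 OHCs (110.4 and 364.6 CPM), against 10.1 and 19.6 CPM in mature OHCs and 1598 and 2229 CPM in SCs. Mesenchyme, stria vascularis and Schwann cell markers had their highest sum in an SC library. In SCs 5 mesenchyme genes summed to 705 and 812 CPM, 5 genes of the stria vascularis to 367 and 867 CPM and 4 Schwann cell genes to 171 and 224 CPM. Elsewhere the mesenchyme sum was 16.4 to 195.7 CPM in cHCs, 53.2 to 403.4 CPM in P7 OHCs, at most 3.37 CPM in mature OHCs and 39.2 to 130.2 CPM in IHCs. The stria vascularis sum was 2.36 to 222.4 CPM in cHCs, 1.28 to 139.4 CPM in P7 OHCs, 3.50 to 28.7 CPM in mature OHCs and 111.4 to 193.1 CPM in IHCs. That of Schwann cells was at most 185.6 CPM outside SCs, and that of 4 neuron genes reached 360 and 526 CPM in IHCs. The part of other cells in the member levels was not tested. The P21 library of the mature OHCs stood apart, with 33.5% of its counts on mitochondrial rRNA against 15.9% to 26.8% elsewhere and a TMM factor of 0.583 against 0.930 to 1.20 elsewhere. The library numbers fall into one series for SCs, cHCs and P7 OHCs and another for mature OHCs and IHCs, so cell type and series cannot be told apart between them. In bulk samples fewer cells of a type and less RNA per cell cannot be told apart either.

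The promoters of 3 members on which the results turn, Atp5b, Cox8a and Cox6a1, are shown with that of Cox8b, a muscle isoform that was close to absent here, because nuclear respiratory chain genes are known targets of NRF1 and of the ETS factor GABP. Each runs from 200 bases before to 30 bases from the annotated start, on the coding strand, from the RefSeq annotation of GRCm38.p6, a later build than the mm9 used for counting. Capitals mark the letters searched on either strand, for NRF1 GCGCA, then any base, then GCGC, and for GABP CCGGAAG, and no match of one overlapped a match of the other in these 4 windows. They lie at chr10:128083107-128083336 (plus strand, Atp5b), chr19:7217587-7217816 (minus strand, Cox8a), chr5:115348929-115349158 (minus strand, Cox6a1) and chr7:140900417-140900646 (minus strand, Cox8b).
Atp5b: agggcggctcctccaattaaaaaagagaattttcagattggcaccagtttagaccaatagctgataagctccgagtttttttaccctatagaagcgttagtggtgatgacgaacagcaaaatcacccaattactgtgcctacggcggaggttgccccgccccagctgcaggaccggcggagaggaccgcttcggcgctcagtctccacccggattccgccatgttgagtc
Cox8a: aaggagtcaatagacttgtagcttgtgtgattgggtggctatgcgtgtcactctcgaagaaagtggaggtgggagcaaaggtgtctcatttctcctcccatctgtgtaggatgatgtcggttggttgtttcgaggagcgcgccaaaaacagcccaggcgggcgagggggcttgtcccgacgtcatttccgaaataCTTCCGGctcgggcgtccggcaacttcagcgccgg
Cox6a1: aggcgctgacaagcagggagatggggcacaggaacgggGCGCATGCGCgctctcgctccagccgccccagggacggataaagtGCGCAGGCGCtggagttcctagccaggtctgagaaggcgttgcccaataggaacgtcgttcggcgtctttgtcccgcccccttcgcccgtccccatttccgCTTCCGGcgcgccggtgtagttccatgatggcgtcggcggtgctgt
Cox8b: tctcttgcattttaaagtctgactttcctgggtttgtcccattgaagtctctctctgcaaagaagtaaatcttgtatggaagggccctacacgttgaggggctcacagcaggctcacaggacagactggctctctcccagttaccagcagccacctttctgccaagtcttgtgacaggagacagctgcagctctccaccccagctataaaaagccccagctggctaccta

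The Cox6a1 window held 2 matches for NRF1 and 1 for GABP, the Cox8a window held 1 for GABP, and those of Atp5b and Cox8b held none. In the counts that follow, a gene counted if any of its annotated windows held the letters. Of the 74 members matched to a promoter by symbol, 17 (23.0%) held the NRF1 letters against 4.71% of all 27025 annotated genes. The GABP letters were held by 15 members (20.3%) against 8.85%. Either was present in 28 members (37.8%) against 12.7% of all these genes, which include the members and genes not expressed here. Atp5b, the member with the smallest joint p-value below, is not among those with a match, and no match says only that these letters are not in the window.

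The summed level of all members was higher in P7 OHCs than in any other cell type. It was 6053 and 7175 CPM in SCs (libraries 12 and 11), 4819 and 5255 in cHCs (13 and 16), 12369 and 12069 in P7 OHCs (15 and 14), 5768 and 5797 in mature OHCs (P21 and P22), and 5245 and 6265 in IHCs (P74 and P75). Both P7 OHC libraries lay above the other 8. As means these were 12219 ± 213 CPM in P7 OHCs, 6614 ± 793 in SCs, 5037 ± 308 in cHCs, 5783 ± 20.8 in mature OHCs and 5755 ± 721 in IHCs (SD, n = 2). The P7 OHC mean was 1.85 times that of SCs, 2.43 times that of cHCs, 2.11 times that of mature OHCs and 2.12 times that of IHCs. All other libraries came from mice aged P21 or older, so age and cell type cannot be told apart in these ratios. An exact permutation test of 2 libraries against 2 cannot go below a 2-sided p of 0.333, the value it gave for each of these 4 comparisons. Without Atp5b, a set chosen after seeing the data, the ratios were 1.63, 2.24, 1.92 and 1.91. The closeness of the mature OHC libraries rests on the TMM factor, since without it the members took 0.336% of the counts of the P21 library and 0.644% of those of the P22 library. With the files as attached to the records, the ratio to cHCs was 0.886 and those to the other 3 cell types stayed above 1.

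**Figure D1:**
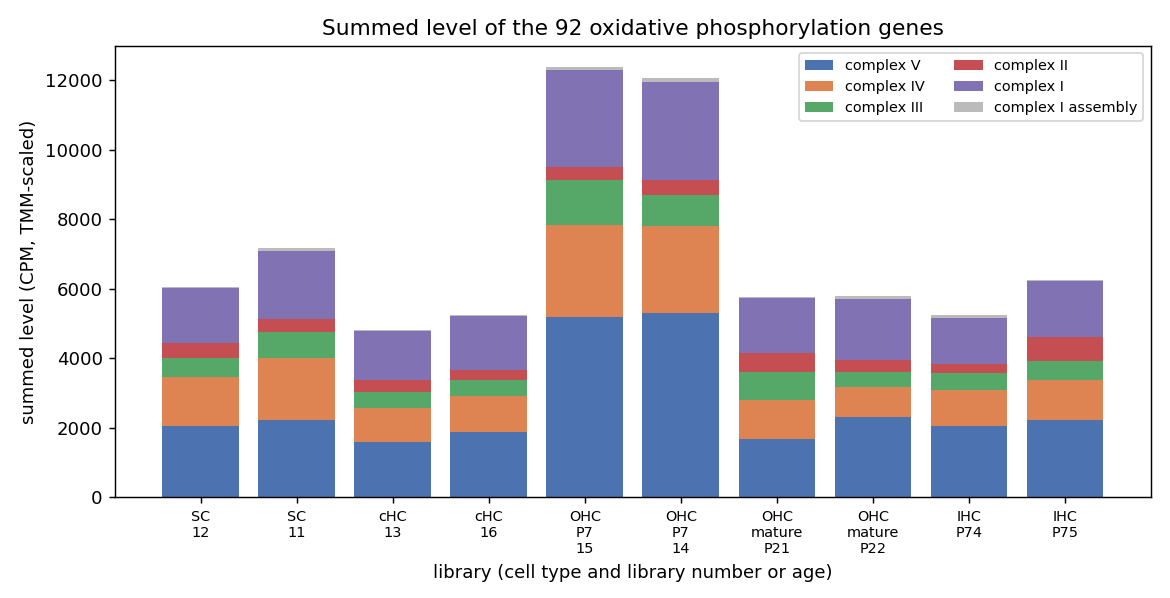
Summed level in CPM (vertical axis) of the 92 genes in each of the 10 libraries (horizontal axis, cell type and library number or age), with 1 coloured segment for each complex. The bars of P7 OHC libraries 15 and 14 reach 12369 and 12069 CPM, and the highest other bar, SC library 11, reaches 7175 CPM.

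The complexes did not share this difference evenly. The complex V genes summed to 5199 and 5304 CPM in P7 OHCs and to between 1602 and 2297 CPM in the other 8 libraries, so that the P7 OHC mean was 2.45 to 3.02 times the means of the other cell types. For complex IV the P7 OHC sums were 2635 and 2495 CPM against 880 to 1789 CPM elsewhere, and the ratio of means ran from 1.60 (to SCs) to 2.56 (to mature OHCs). For complex I they were 2782 and 2811 CPM against 1342 to 1967 CPM elsewhere, with ratios from 1.58 to 1.89. For complex III they were 1296 and 885 CPM against 443 to 811 CPM, with ratios from 1.72 to 2.35, and the gap between the lower P7 OHC library and the highest of the others, the P21 library, was small. Complex II, which links the citric acid cycle to the chain, showed no such order: its genes summed to 388 and 448 CPM in P7 OHCs, inside the range of 244 to 679 CPM of the others, and the ratio of means ran from 0.907 to 1.36.

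The next question was which single genes carried these sums. Among 89 members that passed the count filter, of 16891 genes tested, the joint quasi-likelihood F-test of edgeR over the 5 cell types called 2 at a false discovery rate (FDR) under 0.05, Atp5b and Cox8a, where 7.81% of all tested genes were called. Library spread was wide (common dispersion 1.12), and 15 members had an unadjusted p under 0.05 against 25.6% of all genes. The share of members called was thus below the background in both counts. DESeq2 called 14 members and limma-voom, the study's method, called 7 in the joint test, where they called 26% and 13.5% of all genes.

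Atp5b, on chromosome 10 (mm9 chr10:127520329-127527447), encodes the catalytic beta subunit of the ATP synthase. It had the highest mean CPM of the members, not corrected for length. Per kb of annotated exon (4.237 kb) its mean of 189 CPM lay below those of Cox6a1, Cox8a, Ndufa4 and Cox4i1, given below, an order that depends on the exon length used. Its level was 362.6 and 464.1 CPM in SCs, 494.4 and 539.2 CPM in cHCs, 1934 and 2287 CPM in P7 OHCs, 219.2 and 814.4 CPM in mature OHCs, and 476.3 and 434.6 CPM in IHCs. Both P7 OHC libraries were more than double the highest other library, and the 2 mature OHC libraries spanned all libraries of the remaining cell types. The joint test gave an edgeR FDR of 0.0360, which rose to 0.0671 without P7 OHC library 15 and to 0.155 without library 14. Cox8a, the ubiquitous isoform of a small complex IV subunit (mm9 chr19:7289648-7292106), had levels of 261 and 276 CPM in SCs, 138 and 131 in cHCs, 381 and 434 in P7 OHCs, 85.0 and 119 in mature OHCs, and 105 and 128 in IHCs. P7 OHCs were highest and SCs second without overlap, and cHCs lay above both mature hair cell types by little more than the spread of their libraries. Its joint edgeR FDR was 0.0461, and leaving out any single library other than the mature P22 one raised it to between 0.0600 and 0.239. The titles of libraries 12, 13 and 15 (1 each of SCs, cHCs and P7 OHCs) carry a further sample number that those of 11, 16 and 14 lack, and with this set as a block in the model, added after seeing the data, the joint FDR was 0.0489 for Atp5b and 0.0782 for Cox8a. Cox6a1 (mm9 chr5:115795651-115798990), which encodes the ubiquitous form of another small complex IV subunit, missed the threshold with a joint edgeR FDR of 0.0526.

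**Figure D2:**
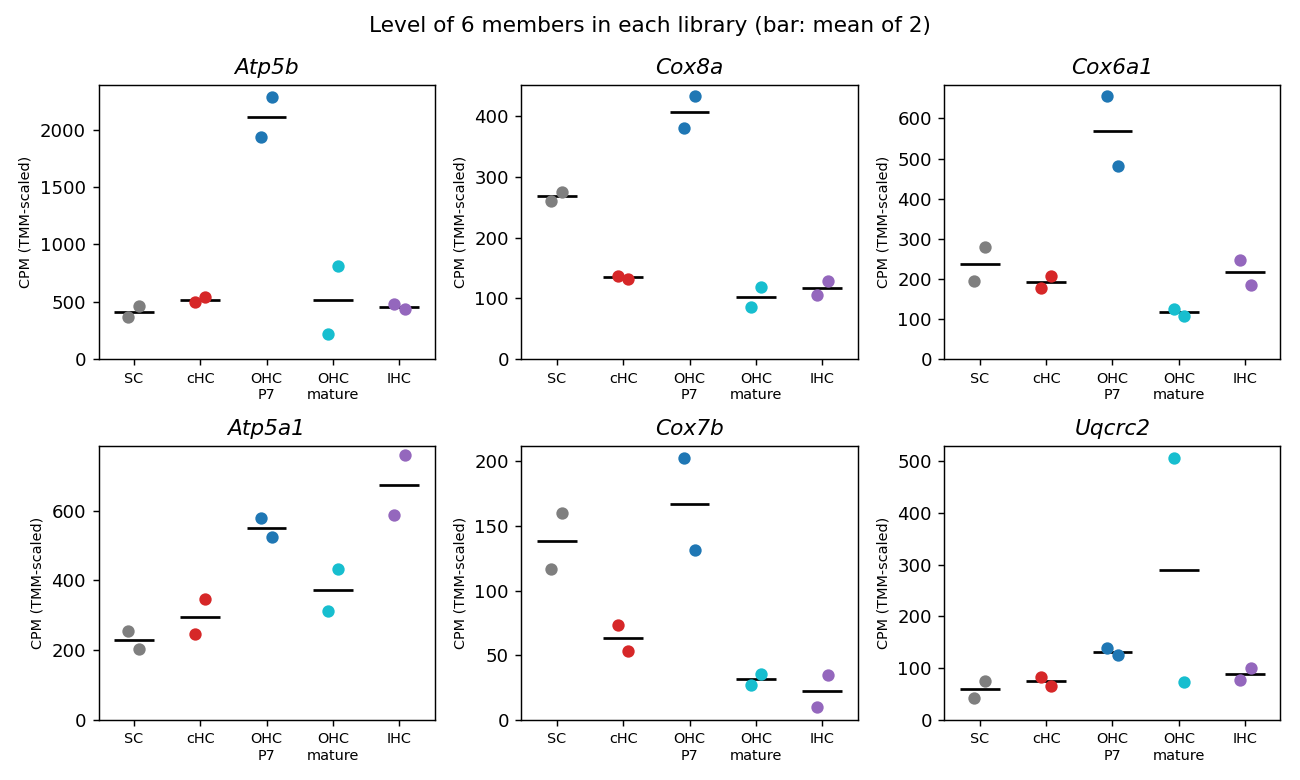
Level in CPM (vertical axis, from 0) of Atp5b, Cox8a, Cox6a1, Atp5a1, Cox7b and Uqcrc2 in each library, by cell type (horizontal axis), with points for libraries and a bar for the mean of 2. Atp5b at 1934 and 2287 CPM in P7 OHCs stands above all other libraries, and the mature OHC points of Uqcrc2 lie at 507 and 72.4 CPM.

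Ranks of single libraries showed how widely the P7 OHC level was shared among the members. Both P7 OHC libraries lay above the other 8 for 25 of the 89 tested members, where this held for 3.87% of all tested genes, and for 0 members did both lie below (1.89% of all genes). These 25 comprised 9 of 19 genes of complex V (Atp5b, Atp5c1, Atp5f1, Atp5g1, Atp5g3, Atp5j, Atp5k, Atp5l and Atp5l2), 6 of 16 tested genes of complex IV (Cox5a, Cox5b, Cox6a1, Cox6b1, Cox6c and Cox8a), 8 of 38 of complex I, 2 of 8 of complex III (Uqcr10 and Uqcrh) and 0 of 4 of complex II. In cHCs the pattern held for 1 member, Cox8b, against 5.35% of all genes, in SCs for 4 (7.97%), in IHCs for 1, Atp5a1 (4.48%), and in mature OHCs for 0 (6.17%). Both libraries lay below the other 8 for 8 members in mature OHCs (6.25% of all genes), among them Cox6a1, Cox7a2, Uqcrfs1, Atp5k and Atp5l, for 6 in SCs (6.89%), for 4 in cHCs (1.83%), among them Sdha and Cox7c, and for 0 in IHCs (1.89%). These counts were made after the sums had been seen and carry no test.

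**Figure D3:**
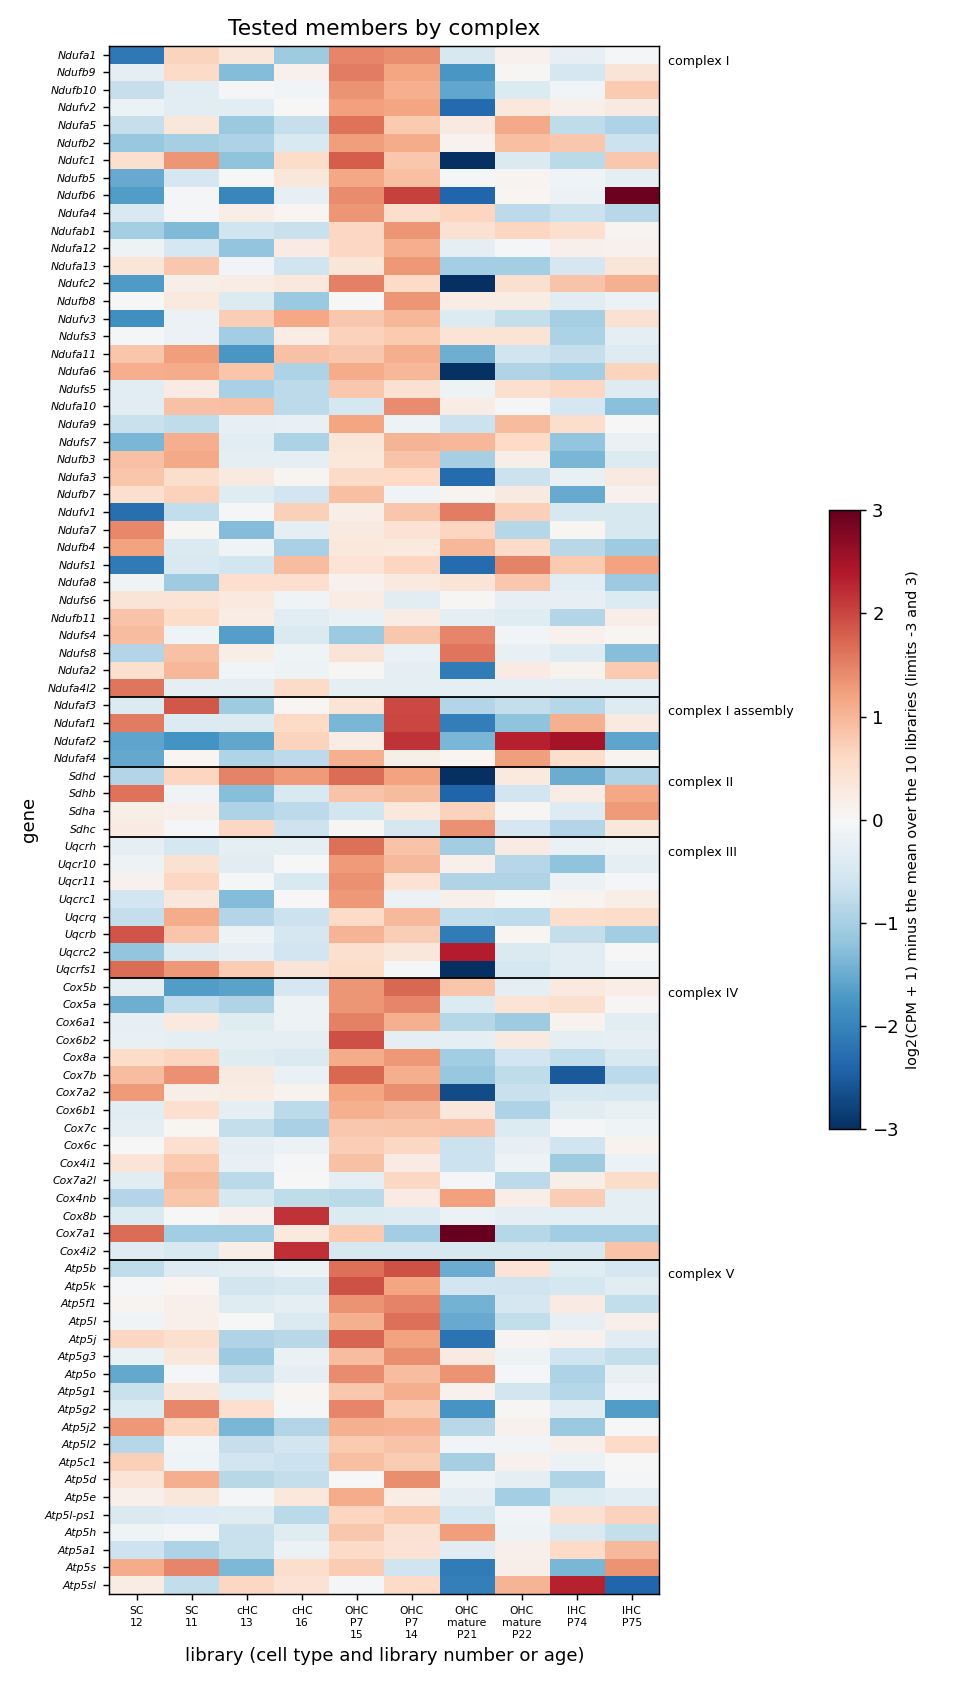
log2(CPM + 1) of 88 of the 89 tested members (rows, grouped by complex) in the 10 libraries (columns), each shown as its difference from the gene's mean over the libraries, from blue (lower) to red (higher) with limits of -3 and 3. The P7 OHC columns 15 and 14 are mostly red outside complex II, and the column of the mature P21 library holds many dark cells in both colours.

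P7 OHCs and SCs were compared first, as native young hair cells against supporting cells from mice without the Atoh1-HA transgene. The SCs were older, at P26 and P27, so age and cell type cannot be told apart in this comparison. Atp5b was the only member called, at a log2 fold change of 2.35 (SE 0.56, edgeR FDR 0.0453), where 3.41% of all genes were called. The call was lost without any one of the 4 libraries compared: the FDR was 0.154 and 0.0872 without SC libraries 12 and 11, and 0.0747 and 0.130 without P7 OHC libraries 15 and 14. It was lost with the title set as a block too (FDR 0.0558). Another 12 members had an unadjusted p under 0.05, all higher in P7 OHCs (11.0% of all genes) and 0 lower (7.93%). Cox5b, a matrix-side subunit of complex IV, measured 184 and 243 CPM in P7 OHCs against 58.9 and 22.2 CPM in SCs, a log2 fold change of 2.40 (SE 0.73, edgeR FDR 0.113). Ndufab1, the mitochondrial acyl carrier protein that is also a complex I subunit, measured 75.4 and 122 CPM in P7 OHCs against 23.4 and 18.8 CPM in SCs (log2 fold change 2.23, SE 0.69, edgeR FDR 0.117). In both genes the groups did not overlap, as was the case for 45 members in the direction of P7 OHCs (26% of all genes) and 7 members in that of SCs (22.6%). The median log2 fold change over the 89 members was 0.68, against 0 over all tested genes, and 65 members had a higher estimate in P7 OHCs. Without SC library 11 this median was 1.10. Complex V had the highest class median (1.04, with 18 of 19 genes higher) and complex II the lowest (-0.16, with 1 of 4 higher). DESeq2 called 6 members (15.9% of all genes) and limma-voom called 3 (6.94%), among them Atp5b and Cox5b under both.

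cHCs and SCs differ in age and in the Atoh1-HA transgene. No member was called between them at an edgeR FDR under 0.05, against 1.84% of all genes, while DESeq2 called 1, Atp5j2 (10.4% of all genes), and limma-voom called 0 (6.31%). The 3 members with an unadjusted p under 0.05 were Atp5j2 and Atp5d, lower in cHCs (4% of all genes), and Ndufv3, higher in cHCs (11.0%). Atp5j2, the f subunit of the membrane part of ATP synthase, measured 20.3 and 29.3 CPM in cHCs against 136 and 86.5 CPM in SCs (log2 fold change -2.17, SE 0.72, edgeR FDR 0.204). With the files as attached to the records its estimate was 0.37. Values in cHCs lay below both SC libraries for 30 members (20.4% of all genes) and above both for 17 (25.4%), and the median log2 fold change was -0.51 against 0.03 over all genes. The complex IV sum was 964 and 1044 CPM in cHCs against 1413 and 1789 CPM in SCs, which did not overlap, and the median of its 16 tested genes was -0.70. The member median was -0.16 without SC library 11, and with the files as attached to the records it turned to 0.84.

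P7 OHCs against cHCs gave the largest member median of the 8 comparisons. The cHCs were older, at P33, so here too age and cell type cannot be told apart. The median log2 fold change was 1.16, against -0.09 over all genes, and 79 of 89 members had a higher estimate in P7 OHCs. Groups did not overlap for 62 members higher in P7 OHCs (21.3% of all genes) and 3 lower (23.8%). No member passed an edgeR FDR of 0.05, in a comparison in which 0.343% of all genes did. At an unadjusted p under 0.05, 19 members were higher (4.36% of all genes) and 2 lower (6.80%). Atp5b had the smallest edgeR FDR (0.195, log2 fold change 2.03, SE 0.55), which was 0.0225 and 0.0248 in fits without the P21 or the P22 library of the mature OHCs, and Cox5b, at 23.3 and 51.3 CPM in cHCs, had a log2 fold change of 2.52 (SE 0.73, edgeR FDR 0.239). DESeq2 called 6 members (6.66% of all genes) and limma-voom 3 (2.24%), with Atp5b and Cox8a under both. With the files as attached to the records, the member median turned to -0.20.

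Mature against P7 OHCs, a comparison of ages that also crosses the library series, gave mostly lower estimates. The median log2 fold change of the members was -1.07, against -0.04 over all genes, and it was -0.94 without the P21 library and -1.33 without the P22 library. In mature OHCs 51 members lay below both P7 libraries (23.6% of all genes) and 3 above (19.8%). At an unadjusted p under 0.05, 22 members were lower (7.95% of all genes) and 0 higher (5.90%), while none passed an edgeR FDR of 0.05 (0.551% of all genes). Cox6a1 measured 656 and 481 CPM at P7 against 126 and 108 CPM at maturity, and both mature libraries were the lowest of all 10. Its log2 fold change was -2.28 (SE 0.48, edgeR FDR 0.0687). Cox8a (-2.00, SE 0.47, edgeR FDR 0.0993), Atp5l, the g subunit of ATP synthase (-2.49, SE 0.62, edgeR FDR 0.112), and Atp5b (-2.03, SE 0.55, edgeR FDR 0.149) followed. The Atp5b difference rested on the P21 library in part, with a log2 fold change of -1.36 without it, and without the P22 library it was -3.27 (edgeR FDR 0.0153). DESeq2 called 10 members, all lower in mature OHCs (9.71% of all genes in either direction), and limma-voom called Atp5b alone (0.651%).

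**Figure D4:**
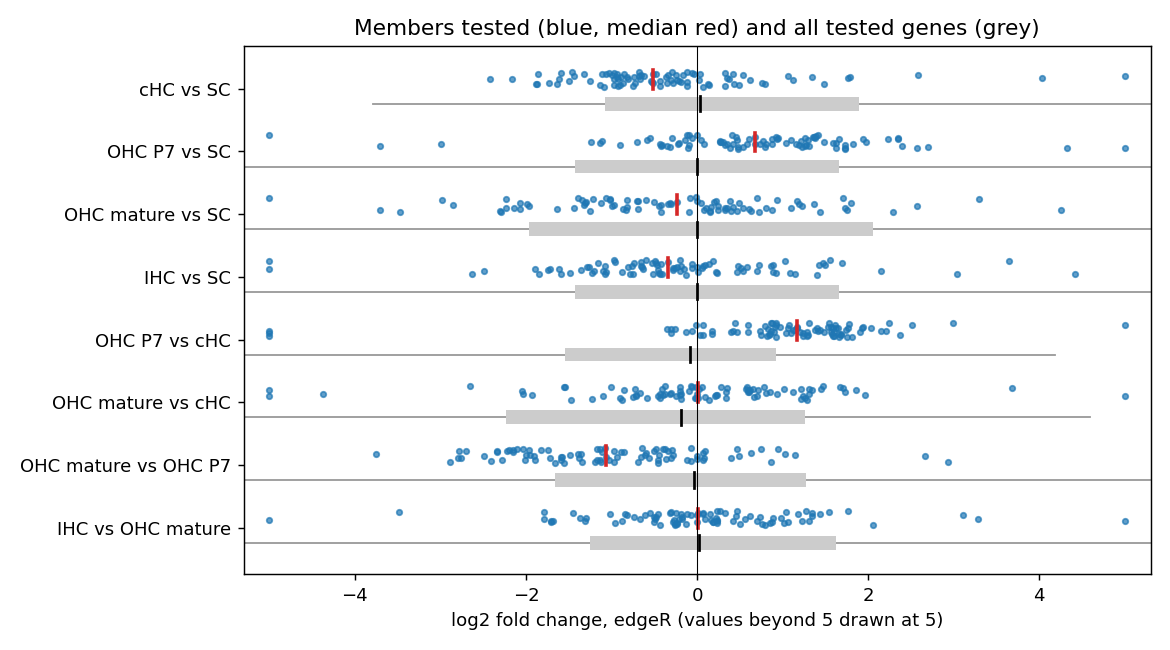
edgeR log2 fold change (horizontal axis) of the 89 tested members (blue points, red line at their median) in 8 comparisons (rows), above a grey bar for the 25th to 75th percentile of all 16891 tested genes, a grey line from their 5th to 95th percentile and a black line at their median. The members' median lies right of the grey bar for P7 OHCs against cHCs, at 1.16, and inside the bar in the other rows.

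Medians of other short genes and of ribosomal protein genes are given beside these shifts. The members' exons had a median total length of 1.231 kb. Other tested genes of at most 1.5 kb and at least 20 CPM on average (525 genes, a group chosen after seeing the data) had a median log2 fold change of -0.89 from P7 to mature OHCs, close to the -1.07 of the members, and of -0.66 in cHCs against SCs, where the members had -0.51. For P7 OHCs against SCs they had -0.40 against the members' 0.68, and for P7 OHCs against cHCs 0.31 against 1.16. Cytosolic ribosomal protein genes (80) had -1.43, -0.77, -0.80 and 0.05 in these 4 comparisons. Mitochondrial ribosomal protein genes (79) had -0.63, -0.48, 0.04 and 0.66. In mature OHCs against SCs the short genes had -1.31 against the members' -0.24, and in IHCs against SCs -0.70 against -0.34. In mature OHCs against cHCs they had -0.61 against 0.01, and in IHCs against mature OHCs 0.58 against 0.01. In these 4 further comparisons cytosolic ribosomal protein genes had -2.06, -1.55, -1.32 and 0.54, and mitochondrial ones -0.67, -0.51, -0.20 and 0.51. The part of transcript length in the member results was not tested.

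Mature hair cells against SCs gave estimates in both directions. In mature OHCs 14 members had an unadjusted p under 0.05, 3 higher (13.3% of all genes) and 11 lower (12.4%), and none passed an edgeR FDR of 0.05, against 8.02% of all genes. Cox8a had a log2 fold change of -1.40 (SE 0.46, edgeR FDR 0.0901). Cox7b, a small X-linked complex IV subunit, measured 26.98 and 35.7 CPM in mature OHCs against 116 and 160 CPM in SCs (log2 fold change -2.14, SE 0.72, edgeR FDR 0.0967). Ndufv1, the NADH-binding subunit of complex I, measured 92.7 and 52.3 CPM in mature OHCs against 5.82 and 18.5 CPM in SCs, a log2 fold change of 2.57 (SE 0.90, edgeR FDR 0.104). The groups did not overlap in these 3 genes, as in 13 members higher (25.2% of all genes) and 32 lower (25.3%). DESeq2 called 10 members and limma-voom 0, of 24.6% and 11.2% of all genes. The member median of -0.24 was -0.51 without the P21 library, -0.55 without the P22 library, -0.53 without SC library 12 and -0.04 without SC library 11, and 0.05 with the files as attached to the records.

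IHCs against SCs gave 4 members with an unadjusted p under 0.05, 2 higher (10.4% of all genes) and 2 lower (6.99%), and none at an edgeR FDR under 0.05, against 2.65% of all genes. Atp5a1, the alpha subunit that forms the F1 head of ATP synthase with the beta subunit, had 253.9 and 202.7 CPM in SCs, 245.0 and 345.0 in cHCs, 579.1 and 522.7 in P7 OHCs, 311.9 and 432.2 in mature OHCs, and 587.8 and 758.2 in IHCs. IHCs were highest and just above P7 OHCs, so the level of the alpha subunit followed another order than that of the beta subunit Atp5b. Its log2 fold change in IHCs against SCs was 1.56 (SE 0.43, edgeR FDR 0.0976). Cox7b measured 9.84 and 34.8 CPM in IHCs (log2 fold change -2.63, SE 0.74, edgeR FDR 0.0996). Both DESeq2 (13.6% of all genes called) and limma-voom (6.23%) called these 2 genes and no other member. Values in IHCs lay above both SC libraries for 19 members (24.9% of all genes) and below for 29 (22.3%), with a member median of -0.34, which was -0.54 without the P75 library, -0.19 without SC library 11 and -0.03 with the files as attached to the records.

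Mature OHCs had member medians close to 0 against both cHCs and IHCs. The median log2 fold change was 0.01 for mature OHCs against cHCs, with -0.19 over all genes, and 0.01 for IHCs against mature OHCs, with 0.03 over all genes. Neither comparison gave a member at an edgeR FDR under 0.05 (3.18% and 1.46% of all genes), and DESeq2 called 0 and 1 (16.1% and 12.1%) and limma-voom 0 in both (5.51% and 1.77%). At an unadjusted p under 0.05, 2 members were higher (7.60% of all genes) and 1 lower (11.7%) in mature OHCs against cHCs, and 0 higher (8.41%) and 1 lower (6.74%) in IHCs against mature OHCs. Mature OHCs lay above both cHC libraries in 22 members (21% of all genes) and below in 18 (28.1%). IHCs lay above both mature OHC libraries in 18 members (24.1%) and below in 15 (18.6%). Uqcrc2, a core protein of complex III, had the smallest FDR against cHCs, but it rested on 1 library: its level was 507 CPM in the P21 library, 72.4 CPM in the P22 library and between 42.6 and 138 CPM elsewhere. The log2 fold change of 1.97 (SE 0.79, edgeR FDR 0.212) was -0.08 without the P21 library. Atp5h, the d subunit of the ATP synthase stalk, had the smallest FDR between IHCs and mature OHCs (log2 fold change -1.30, SE 0.57, edgeR FDR 0.314), with 329 CPM in the P21 library, 124 CPM in the P22 library and 101 and 83.0 CPM in IHCs. Without the P21 library its log2 fold change was -0.46. With the files as attached to the records, the member median of mature OHCs against cHCs was -0.83, and without the P22 library it was -0.28 against cHCs and 0.38 for IHCs against mature OHCs.

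Among the members, the core subunits had no edgeR call apart from Atp5b. In complex I, the core subunits Ndufs1, Ndufs3, Ndufs7, Ndufs8, Ndufv1 and Ndufv2 had joint edgeR FDRs between 0.276 (Ndufv1) and 0.729 (Ndufs8). Ndufs1, the large iron-sulfur subunit, ranged from 4.67 CPM in the P21 library to 77.4 CPM in the P22 library of the mature OHCs. In complex II, Sdha, the flavoprotein, had 226 and 222 CPM in SCs, 105 and 115 in cHCs, 135 and 248 in P7 OHCs, 324 and 205 in mature OHCs and 152 and 486 in IHCs, with a joint edgeR FDR of 0.398. The cHC libraries were its lowest 2. Sdhb, Sdhc and Sdhd, the iron-sulfur subunit and the membrane anchors, had joint FDRs of 0.289, 0.843 and 0.285, and Sdhd ran from 2.56 CPM in the mature P21 library to 112 CPM in P7 OHC library 15. In complex III, Uqcrfs1, the Rieske iron-sulfur protein, had 90.3 and 69.6 CPM in SCs, 47.4 and 36.3 in cHCs, 41.1 and 26.7 in P7 OHCs, 1.32 and 18.9 in mature OHCs and 22.1 and 25.5 in IHCs. Both SC libraries were highest and both mature OHC libraries lowest, an order other than that of the sum of its complex, and its joint edgeR FDR was 0.342. Uqcrc1, the other core protein, had a joint edgeR FDR of 0.778.

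Many of the largest fold estimates belonged to members with few counts or with widely spread libraries. Among the 3 largest in either direction in a comparison were Atp5j2, Cox5b, Cox7b, Ndufv1 and Uqcrc2, described above, Cox4i2, Cox6b2, Cox7a1, Cox8b and Ndufa4l2, whose levels are given with the isoforms below, and the assembly factors Ndufaf1 and Ndufaf2, and none passed an edgeR FDR of 0.05. Ndufaf2 had 0.844 and 0.611 CPM in SCs, 0.893 and 7.87 in cHCs, 5.44 and 23.9 in P7 OHCs, 1.15 and 26.8 in mature OHCs and 30.5 and 0.859 in IHCs, so that libraries of 1 cell type differed by more than the cell types did. Ndufaf1 ranged from 0.265 CPM in the mature P21 library to 20.5 CPM in P7 OHC library 14. Ndufb6, an accessory subunit of complex I, measured 17.7 and 28.2 CPM in P7 OHCs and 52.5 CPM in the P75 library of the IHCs, against at most 6.28 CPM in the other 7. Ndufa6, another accessory subunit, lay at 2.38 and 13.2 CPM in mature OHCs against 56.5 and 51.8 CPM at P7 (edgeR FDR 0.314). Ndufb4 lay at 20.95 and 17.7 CPM in IHCs against 76.8 and 57.1 CPM in mature OHCs (edgeR FDR 0.334).

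Correlation of each member with the median of the other members of its class over the 10 libraries, on log2(CPM + 1), described how far each class moved as one. The median Pearson r was 0.65 in complex V, 0.50 in complex III, 0.47 in complex I and 0.44 in complex IV, and -0.42 in complex II. The members most like their class were Atp5k (r of 0.95), Ndufb9 (0.90) and Cox6a1 (0.89). Atp5b had 0.88 and Atp5a1 had 0.23. These values share libraries, depth and the P7 OHC step across n of 10 libraries and carry no p.

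Several complex IV subunits exist as paired isoforms, of which one is known from heart and skeletal muscle or from particular conditions and the other from most tissues, and the ubiquitous forms were the ones detected throughout. Levels were compared per kb of all annotated exons of a gene, a length that can exceed that of the transcript expressed. On this scale Cox6a1 averaged 379 CPM per kb over the 10 libraries, Cox8a 378, Cox4i1 274, Cox6b1 148, Cox7a2 116 and Cox7b 69.4. The muscle isoform Cox6a2 and the testis isoforms Cox8c and Cox7b2 failed the count filter, with at most 1, 1 and 11 counts in any library. Cox8b, the muscle form of Cox8a, averaged 1.73 CPM per kb and was highest in the cHC libraries (0.468 and 4.98 CPM, from 11 and 196 counts), against at most 0.319 CPM in the other 8. Cox4i2, a form known from lung and low oxygen, had 0.596 and 5.39 CPM in cHCs, 1.51 CPM in the P75 library of the IHCs and at most 0.0888 CPM in the other 7 libraries. Cox7a1 reached 19.3 CPM in the mature P21 library and 5.60 CPM in SC library 12, and Cox6b2 reached 3.63 CPM in P7 OHC library 15 and at most 0.463 CPM elsewhere. The highest value of each came from 1 library, and none passed an edgeR FDR of 0.05. Skeletal muscle markers (6 genes) summed to at most 0.432 CPM in any library. Pericyte markers (6 genes) summed to 41.2 and 61.8 CPM in SCs, 6.05 and 21.7 in cHCs and 2.42 and 13.7 in P7 OHCs. In mature OHCs and IHCs the pericyte sum was at most 0.876 CPM. The part of such cells in the isoform levels was not tested. Ndufa4, at 301 CPM per kb, exceeded its paralogue Ndufa4l2, which was seen in 2 libraries, SC 12 (2.67 CPM) and cHC 16 (0.787 CPM).

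**Figure D5:**
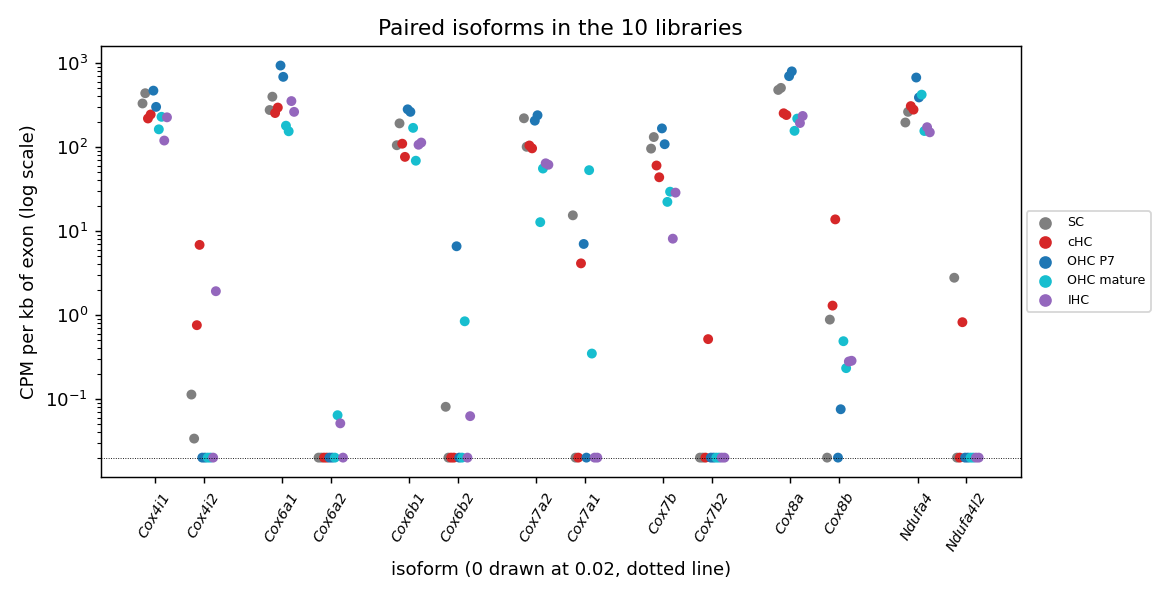
Level in CPM per kb of exon (vertical axis, log scale) of 7 pairs of isoforms (horizontal axis), with 1 point for each of the 10 libraries coloured by cell type and values of 0 drawn on the dotted line at 0.02. The first isoform of each pair lies above the second in every library except for Cox7a2 and Cox7a1 in the mature P21 library, at 12.7 and 53.0 CPM per kb.

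The c subunit of the ATP synthase ring is encoded by Atp5g1, Atp5g2 and Atp5g3, which give the same mature protein. Per kb of annotated exon, Atp5g1 (4.908 kb) averaged 18.3 CPM and Atp5g2 (0.647 kb) 54.1, with Atp5g3 just below Atp5g2. Without this division the order was another, with mean levels of 109 CPM for Atp5g3, 89.7 for Atp5g1 and 35.0 for Atp5g2. Which of the 3 is most abundant thus depends on the length used. Atp5g3 had 184 and 253 CPM in P7 OHCs against 44.6 to 121 CPM elsewhere (joint edgeR FDR 0.164), and Atp5g1 145 and 175 CPM against 45.3 to 105 CPM (0.415). Atp5g2 overlapped between cell types, with 77.1 and 47.9 CPM in P7 OHCs and up to 75.2 CPM elsewhere. Reads from the near-identical copies Atp5l, Atp5l-ps1 and Atp5l2 may have been split in counting, and 19 members overlap exons of another listed gene, with the strand used in counting not given in the sources used here.

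Subunits encoded in the mitochondrial genome showed an order that depended on the mature P21 library. The 13 mitochondrial protein genes summed to 50483 and 45987 CPM in P7 OHCs, 26654 and 22625 in SCs, 28717 and 46534 in cHCs, 82736 and 20365 in mature OHCs, and 24960 and 22713 in IHCs. The P21 library, which stood apart as described above, had the highest sum, and the other mature OHC library had the lowest. Apart from the P21 library, the highest sum was 50483 CPM, in a P7 OHC library. A cHC library at 46534 CPM lay just above the other P7 OHC library. The ratio of the mitochondrial sum to that of the nuclear members was 4.08 and 3.81 in P7 OHCs, inside the range of 3.15 to 14.3 of the other libraries, with the highest value in the mature P21 library. One of the 13, mt-Nd3 of complex I, was called by edgeR, with 10.8 and 14.3 CPM in SCs, 30.6 and 85.7 in cHCs, 301 and 247 in P7 OHCs, 406 and 135 in mature OHCs and 151 and 152 in IHCs. SCs were lowest without overlap, and the edgeR FDR against SCs was 0.00867 for P7 OHCs, 0.00514 for mature OHCs and 0.0241 for IHCs, comparisons in which 3.41%, 8.02% and 2.65% of all genes were called.

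Other genes of energy metabolism, from 5 lists, gave called genes in the comparisons with SCs, in which 1.84% (cHCs), 3.41% (P7 OHCs), 8.02% (mature OHCs) and 2.65% (IHCs) of all tested genes were called. In the citric acid cycle and pyruvate dehydrogenase list, 1 of 18 genes rose in P7 OHCs against SCs, Idh3a, a subunit of the NAD-dependent isocitrate dehydrogenase, at 29.6 and 111 CPM against 3.33 and 2.05 CPM (log2 fold change 4.71, SE 1.12, edgeR FDR 0.0453, where 3.41% of all genes were called). The call was lost with the title set as a block (0.0807) and without SC library 12 (0.134), SC library 11 (0.177), P7 OHC library 14 (0.284) or cHC library 16 (0.0536). Of 28 tested respiratory chain genes outside the naming rule, 1 rose in P7 OHCs (3.41% of all genes called) and in mature OHCs (8.02%) against SCs, cytochrome c1 (Cyc1), a catalytic subunit of complex III, with 23.4 and 26.9 CPM in SCs, 153 and 185 in P7 OHCs and 215 and 102 in mature OHCs. Its edgeR FDR was 0.0453 and 0.0302, its log2 fold changes were 2.75 and 2.66, and both calls were lost without either SC library (0.103 to 0.188), the first also without either P7 OHC library (0.138 and 0.206), with the title set as a block (0.0630), without cHC library 16 (0.05002) or either IHC library (0.0549 and 0.0524), and the second without the P21 library (0.175) or either P7 OHC library (0.0533 and 0.0607). Slc25a12, the aspartate-glutamate carrier, rose among 8 carriers and channels, at 48.2 to 94.9 CPM in the 8 libraries outside SCs against 2.84 and 8.10 CPM in SCs (edgeR FDR 0.0328, 0.0259 and 0.0244 for P7 OHCs, mature OHCs and IHCs, and 0.0687 for cHCs). The call in P7 OHCs was lost without any one of the 4 libraries compared (0.05013 to 0.169).

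Glycolysis genes and regulators of mitochondrial biogenesis held the smallest FDRs among the 5 lists. Of 21 glycolysis and lactate genes, Pfkp, the platelet-type phosphofructokinase, had 0.311 and 0.345 CPM in SCs, 174 and 226 in cHCs, 235 and 221 in P7 OHCs, 312 and 165 in mature OHCs and 7.01 and 26.4 in IHCs. It was higher than in SCs in all 4 other cell types (edgeR FDR between 0.000205 and 0.00344) and lower in IHCs than in mature OHCs (log2 fold change -3.83, SE 0.73, edgeR FDR 0.0309), a call that was lost without the P21 library (0.0972) or the P74 library (0.121). Aldoc, aldolase C, fell from 138 and 167 CPM in SCs to 0.529 and 0.884 CPM in mature OHCs (log2 fold change -7.72, edgeR FDR 0.00794), a call that missed the threshold without the P21 library (0.05009). Of 13 regulators, Ppargc1b, a coactivator of mitochondrial genes, had 0 counts in both SC libraries, 3.87 and 1.63 CPM in cHCs, 17.1 and 27.6 in P7 OHCs, 58.4 and 39.0 in mature OHCs and 1.28 and 1.44 in IHCs. Against a floor of 3 counts per SC library these means were at least 25.8-fold, 210.2-fold, 457.2-fold and 12.8-fold higher, and the edgeR FDRs were 0.0366, 0.00915, 0.00393 and 0.0444. Of these 4 calls, only that in mature OHCs was among the results checked under other settings. The order of Ppargc1b, with mature OHCs highest, was not that of the summed members, with P7 OHCs highest. None of the regulators or carriers differed at an edgeR FDR under 0.05 between P7 OHCs and cHCs or between mature and P7 OHCs.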

How the data were processed

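Bulk RNA-seq was performed by the authors on handpicked cells of 5 cell types, with 2 libraries each. cDNA was amplified by single primer isothermal amplification and sequenced from both ends, base calls were made with CASAVA 1.7, adapters were trimmed with Cutadapt, and reads were mapped to mm9 with STAR and BWA. The authors deposited whole-number counts per gene from HTSeq without normalization. Rows of unassigned reads were left out of library sizes.

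Nothing upstream was repeated. Files were assigned to libraries by their titles and by a constant ratio to the study's CPM columns over genes with at least 10 counts, which differed from the sample record for 4 files. Counts were tested with edgeR 4.0.16 (R 4.3.3; TMM, filterByExpr by cell type, quasi-likelihood F-tests, 1 model of 10 libraries), 2-sided, and p values were adjusted over 16891 genes by Benjamini and Hochberg's method at a threshold of 0.05. Standard errors are the log2 fold change divided by the square root of F. Exon lengths and mm9 positions came from GENCODE vM1 and covered 91 members. Between comparisons with a common cell type, libraries are shared. The members and lists were chosen with earlier results of these data known. Named genes were members past the threshold, the 3 largest rises and falls of each comparison (those near 0 counts are given by level only or counted), paired isoforms, core subunits, the most and least abundant members and list genes past the threshold. The remaining named members, those with the smallest FDR of a comparison or standing apart in 1 library, were chosen after their values were seen. The values of 1 member are not reported here. Scripts were tested on simulated data. Alternatives were DESeq2 1.42.0, limma 3.58.1 with voom, other scaling factors, no count filter, the files as attached, only the compared cell types, leaving out each library, and, added after seeing the data, a block for the set of SC, cHC and P7 OHC libraries with a further sample number in the title. Python 3.11.15 with numpy 2.4.6, pandas 2.3.3 and matplotlib 3.10.9 was used.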

Additional observations from a re-analysis of the deposited data

How the results depend on the processing

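No paired analysis was possible because the cell types share no replicate numbers. The title set of SC, cHC and P7 OHC libraries served as a block in place of such numbers, added after seeing the data. With this block edgeR called 1 member in the joint test (7.07% of all genes) and 0 in P7 OHCs against SCs (3.28%). It called 0 in the other 7 comparisons (0.320% to 7.45% of all genes). The 2 sets also differ in depth. Over 16891 genes the differences between them correlated at 0.04 (SCs and cHCs), 0.05 (SCs and P7 OHCs) and -0.01 (cHCs and P7 OHCs). Over the 89 tested members the same correlations were -0.39, 0.28 and -0.12. DESeq2 called 14 members in the joint test, 1 in cHCs against SCs, 6 in P7 OHCs against SCs, 10 in mature OHCs against SCs, 2 in IHCs against SCs, 6 in P7 OHCs against cHCs, 10 in mature against P7 OHCs and 1 in IHCs against mature OHCs. limma-voom called 7 in the joint test, 3 in P7 OHCs against SCs, 2 in IHCs against SCs, 3 in P7 OHCs against cHCs and 1 in mature against P7 OHCs. RLE and upper-quartile factors each called 1 in the joint test (7.87% and 7.72% of all genes). Without the count filter, 5 were called in the joint test (17.4% of all genes) and 1 in mature OHCs against SCs (10.8%). The same setting called 1 in P7 OHCs against cHCs (2.38%) and 3 in mature against P7 OHCs (3.60%). Under the assignment of the records, 0 were called in the joint test and 0 in P7 OHCs against SCs, as were 0 of all 16891 genes in both. Leaving out 1 library, the joint test called 0 to 6 members, with 0 without either P7 OHC library and 6 without the mature P22 library. The same step gave 0 to 1 in P7 OHCs against SCs and in P7 OHCs against cHCs, 0 to 4 in mature OHCs against SCs, and 0 to 3 in mature OHCs against cHCs and against P7 OHCs. The counts of 3 and 4 arose without the mature P22 library, the 1 against cHCs without either mature OHC library, and the 1 in P7 OHCs against SCs without any one library of the other 3 cell types. It gave 0 to 0 in the other 3 comparisons. The ratio of summed levels in P7 OHCs stayed above 1 under both shares of counts and without any library. As a share of all counts it was 2.01 to cHCs and 2.46 to mature OHCs, and without the 10 most abundant genes of each library 2.15 and 2.51. Without Atp5b it was 1.63 to SCs, 2.24 to cHCs and 1.92 to mature OHCs. With the attached files it was 1.59 to SCs, 0.886 to cHCs, 1.498 to mature OHCs and 1.51 to IHCs. Leaving out 1 library gave 1.703 to 2.02 to SCs, 2.33 to 2.54 to cHCs, 2.09 to 2.14 to mature OHCs and 1.95 to 2.33 to IHCs. Uqcrc2 in mature OHCs against cHCs turned to -0.0767 without the mature P21 library, within a range of -0.0767 to 2.77, and Atp5j2 in cHCs against SCs turned to 0.37 with the attached files. A library left alone in its cell type was assumed to vary like the others. Of 501 alternatives for 28 named results, 403 kept their direction and their side of the threshold. These include results that were not called and stayed so. In 63 a call was lost, in 33 one was gained and in 2 the direction turned. The cause of the differences between tools was not tested. Cox6a2, Cox8c and Cox7b2 had at most 1, 1 and 11 counts in any library, and differences in them were not detectable at this depth.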
